A study of Mus musculus with 2 samples.

Results

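The data on 6 genes of the insulin and insulin-like growth factor (IGF) pathway are given across the cell types of the mouse jejunal crypt in animals that lack miR-375. They are Igfbp4, Igf1r, Igf2r, Insr, Irs1 and Irs2, 6 of the 27998 genes in the count matrices. The genes were named from a list, and Igfbp4 and Igf1r were on it because they are candidate miR-375 targets that were high in stem cells of these same data. Their levels across cell types are therefore given as a description without a test. The fits ran over all genes, and p-values are given for other members only.

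The study used single-cell RNA sequencing of small intestinal crypts to look for genes under control of miR-375, a microRNA that represses messenger RNAs. All cells analysed here came from 2 male mice, labelled 375KO, each 12 months old, with miR-375 deleted in the whole body. The labels give the strain as C57BL6/2J, and the protocol calls the animals B6 albino. Each mouse gave 1 library of jejunal crypts, called replicate 1 and replicate 2 here. Both mice carry the knockout, and wild-type animals were not analysed here, so every comparison is between cell types of knockout crypts. No value below measures an effect of the deletion. A 3′ library does not count the deleted microRNA itself, so the genotype was not checked.

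Insulin and the IGFs are hormones that bind related receptor tyrosine kinases, the insulin receptor (Insr) and the type 1 IGF receptor (Igf1r). Activated receptors recruit the insulin receptor substrates Irs1 and Irs2, which pass the signal to PI3K, AKT and mTOR and so to growth and nutrient use. Igf2r is a receptor without kinase activity that carries IGF2 to the lysosome and also sorts lysosomal enzymes, and Igfbp4 is a secreted protein that binds IGFs and limits their access to receptors. In the gut, IGF signals are known as growth signals for the crypt.

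The authors kept 2082 cells of replicate 1 and 1193 of replicate 2, with a median of 16475 and 15232 UMIs per cell. A UMI (unique molecular identifier) stands for 1 captured RNA molecule. The 2 libraries shared 0 barcodes. The authors' annotation divides the cells into 10 types, of which 9 are epithelial and 1 holds intraepithelial lymphocytes (IEL). Of 41 marker genes listed for 8 of these types, 38 were highest in their own type in both mice. The exceptions were Ascl2 for stem cells and Pcna and Mcm6 for transit-amplifying (TA) cells. The 5 listed stromal markers, which matter because fibroblasts also make Igfbp4, summed to between 0 and 1 UMI in every type of every mouse. Markers of myeloid and B cells (4 genes) summed to 506 and 132 UMIs in IEL and to 105 and 272 UMIs in Paneth cells. Endothelial markers (3 genes) summed to at most 59 UMIs, in enterocytes of replicate 2. Whether these classes hold other cells was not tested. Levels below are UMIs of a gene per 1000000 UMIs (CPM) in the summed cells of 1 type and 1 mouse, with exact Poisson 95% intervals that cover counting error only.

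The 3′ untranslated regions of the members were read for letters that match the seed of miR-375-3p, since these are the stretches through which the microRNA was proposed to act on Igfbp4 and Igf1r. The letters searched were CGAACAA and GAACAAA on the messenger strand, which overlap in a longer match, and they pair with the seed as read from the RefSeq hairpin (GRCm38.p6). The regions are those of GENCODE M21 (mm10). Igfbp4, Igf1r and Insr each held 1 match, Irs1 held 2, and Igf2r and Irs2 held 0. All were GAACAAA, and they are shown with their flanks because the members differ in having one, with the match in capitals.
Igfbp4 site: taaaaaaatcaGAACAAAaccaaaaagtg
Igf1r site: tttctaatacaGAACAAActggtaacaaa
Insr site: gacagaaaacaGAACAAAacaaaacaaaa
Irs1 site, nearer the stop codon: ggtgagaacagGAACAAAcagactggaca
Irs1 site, farther from it: gccataccgtaGAACAAAttcactaccca

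The Igfbp4 match lies at chr11:99052632-99052638 in the last exon (4 of 4) of a gene at chr11:99041244-99054392 on the plus strand. The Igf1r match lies at chr7:68232906-68232912 in exon 21 of 21, on the plus strand, and the Insr match at chr8:3155154-3155160 in exon 21 of 21, on the minus strand. Both Irs1 matches lie in exon 2 of 2 on the minus strand, at chr1:82235359-82235365 and chr1:82233605-82233611. A match was present in 13.45% of 20938 mouse 3′ untranslated regions. Among regions of similar length it was present in 26.8% for Igfbp4, 55.0% for Igf1r, 41.2% for Insr and 38.5% for Irs1. These are matches of letters, and binding was not measured.

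Igfbp4, the binding protein, was highest in stem cells. Stem cells held 62.8 CPM (51.7 to 75.5, 112 UMIs in 139 cells) in replicate 1 and 66.7 CPM (54.7 to 80.6, 107 UMIs in 117 cells) in replicate 2, which averaged 64.7 ± 2.77 CPM (SD, n = 2). The TA level was 18.1 and 18.5 CPM. Enteroendocrine cells (EEC), the hormone-secreting cells of the lining, held 24.2 and 13.9 CPM. Stem cells were above every other epithelial type in both mice, and EEC and TA cells overlapped.

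Below these came goblet progenitors with 11.5 and 8.40 CPM and secretory progenitors with 15.2 and 0 CPM. Goblet cells, the mucus producers, held 1.06 and 3.58 CPM, and tuft cells, the chemosensory cells, held 0 and 5.36 CPM. Enterocytes, the absorptive cells, held 0.155 CPM from 3 UMIs in 931 cells and 0.935 CPM from 5 UMIs in 382 cells. Stem cells thus held 3.46 times (2.69 to 4.45) the TA level in replicate 1 and 3.60 times (2.72 to 4.75) in replicate 2. Against enterocytes the ratio was 405 (135 to 1995) in replicate 1 and 71.3 (29.6 to 224) in replicate 2, wide because of the few enterocyte UMIs.

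The place of Paneth cells, which secrete antimicrobial peptides, depended on the scale. They held 2.28 and 6.42 CPM, but 10 genes took 82.6% and 81.9% of their UMIs, and their TMM factors were 0.156 and 0.121. TMM is a scaling that sets most genes level between sums. After it, Igfbp4 stood at 14.6 and 53.0 scaled CPM in Paneth cells beside 47.5 and 55.3 in stem cells. Stem cells remained the highest type on both scales in both mice, narrowly so in replicate 2 after scaling.

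Counted by cells, 23.5% of stem cells (16.7 to 31.6) in replicate 1 and 23.9% (16.5 to 32.7) in replicate 2 had an Igfbp4 UMI after each cell was thinned to 5000 UMIs. Unthinned, the shares were 41.7% and 50.4%. Of enterocytes, the epithelial type with the lowest mean level of Igfbp4, 0.215% and 0.524% had a UMI after thinning, and 0.322% and 1.31% before it. Their median depth was 16975 and 13405 UMIs, against 12282 and 12559 in stem cells.

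**Figure D1:**
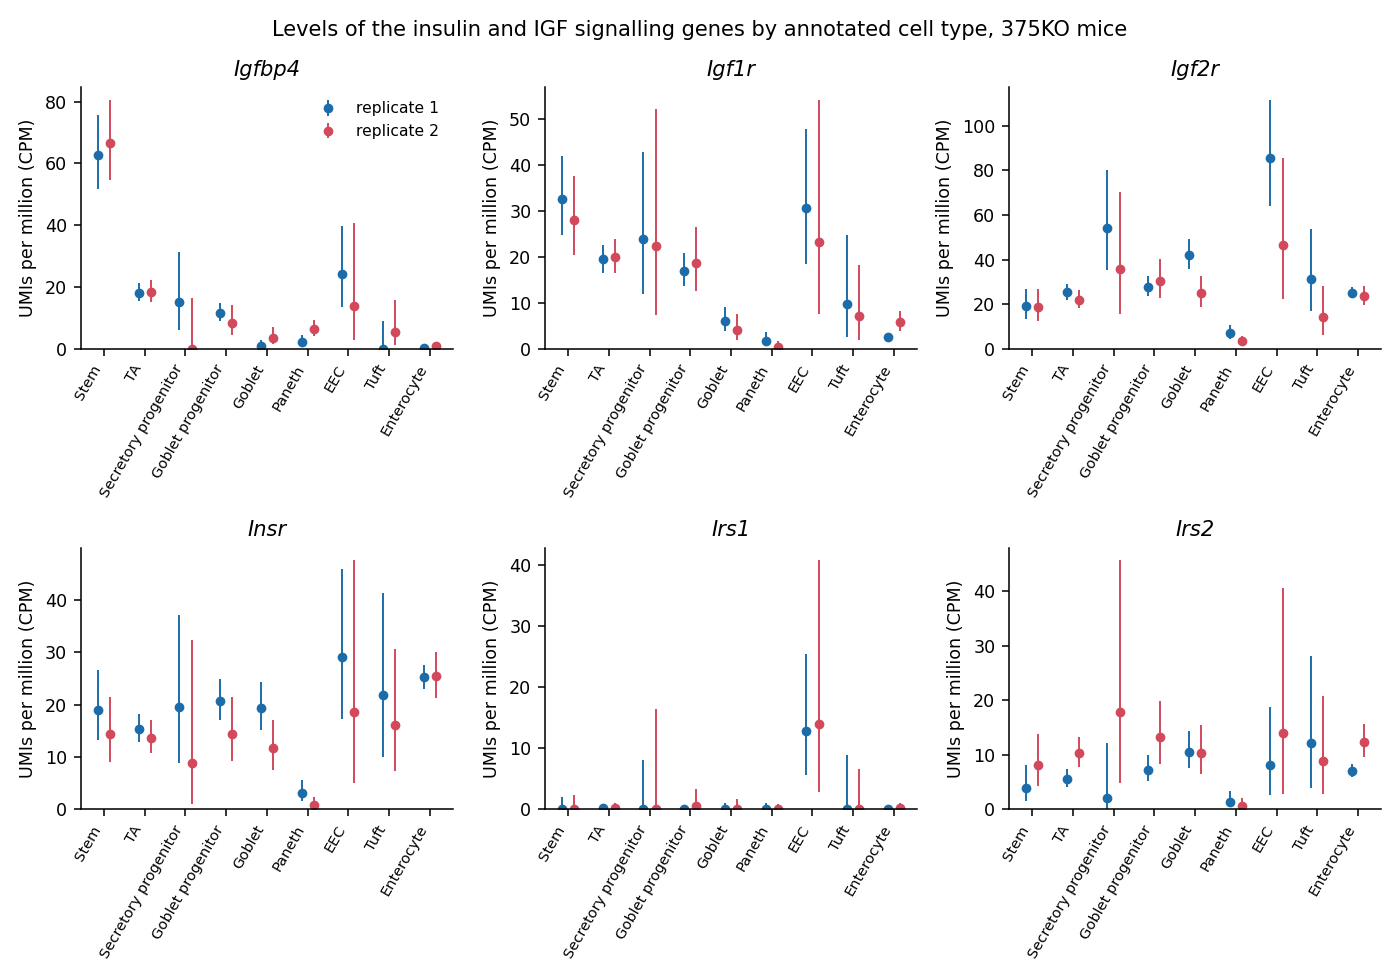
Levels of the 6 genes in CPM (vertical axis, linear, not TMM-scaled) by annotated epithelial cell type, with 1 point per mouse and exact Poisson 95% intervals as bars. Igfbp4 stands at 62.8 and 66.7 CPM in stem cells, Irs1 at 12.9 and 13.9 CPM in EEC, and Paneth cells are low for every gene on this scale, a place that changes after TMM scaling (Igf2r 45.7 and 28.4 scaled CPM).

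The authors' finer clusters showed that the TA class was not uniform for Igfbp4. In TA cluster 13, which also held the stem cell marker Lgr5 at 43.2 and 41.2 CPM, Igfbp4 stood at 65.7 and 59.2 CPM, close to the stem cell cluster. It stood at 17.2 and 17.2 CPM in TA cluster 10, at 3.92 and 6.78 CPM in cluster 8 and at 3.43 and 8.86 CPM in cluster 5. Lgr5 in these last 3 clusters was at most 3.27 CPM. The mitotic gene Mki67 stood at 336 and 210 CPM in cluster 13 and at 75.7 and 28.1 CPM in stem cells. Clusters were built from these cells' expression, so these values are a description.

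Igf1r, the type 1 IGF receptor, had a shallower profile than Igfbp4. Stem cells held 32.5 CPM (24.7 to 42.0) and 28.1 CPM (20.5 to 37.5), EEC 30.6 and 23.2 CPM, and secretory progenitors 23.9 and 22.3 CPM. These neighbours in the order overlapped between the mice. TA cells held 19.4 and 19.9 CPM and goblet progenitors 16.9 and 18.6 CPM, and both lay below the 3 leading types in each mouse.

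The differentiated types other than EEC were low in Igf1r. Tuft cells held 9.67 and 7.14 CPM, goblet cells 6.08 and 4.02 CPM, enterocytes 2.58 and 5.80 CPM, and Paneth cells 1.71 and 0.458 CPM. Stem cells held 12.6 times (8.48 to 18.8) the enterocyte level in replicate 1 and 4.84 times (3.0 to 7.91) in replicate 2. Against TA cells the ratio was 1.67 (1.22 to 2.27) and 1.41 (0.973 to 2.00), and the interval for replicate 2 includes equality. After TMM scaling Paneth cells stood at 11.0 and 3.79 scaled CPM, above enterocytes in replicate 1 and below them in replicate 2.

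Within the TA class Igf1r also differed between clusters. It stood at 36.5 and 34.9 CPM in cluster 13, at 33.0 and 29.4 CPM in cluster 10, at 12.6 and 12.2 CPM in cluster 5, and at 5.60 and 13.6 CPM in cluster 8. Both genes thus differed more among the TA clusters than the class means of the TA cells differed between the mice.

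Insr, the insulin receptor, had its highest mean level in enterocytes, where Igf1r was low. Enterocytes held 25.2 CPM (23.0 to 27.5, 488 UMIs) in replicate 1 and 25.4 CPM (21.3 to 30.1, 136 UMIs) in replicate 2. EEC held 29.0 and 18.6 CPM, tuft cells 21.8 and 16.1 CPM, goblet progenitors 20.7 and 14.4 CPM, and stem cells 19.1 and 14.3 CPM. Goblet cells held 19.3 and 11.6 CPM, TA cells 15.4 and 13.6 CPM, and secretory progenitors 19.5 and 8.93 CPM. Neighbours in this order overlapped from enterocytes down to secretory progenitors, so the order itself is loose. Paneth cells held 3.13 and 0.917 CPM, or 20.1 and 7.58 after TMM scaling.

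Enterocytes exceeded TA cells in Insr by 1.64 times (1.35 to 2.00) and 1.86 times (1.4 to 2.50) on the CPM scale. In the fit across all genes, the log2 difference after TMM scaling was 1.20 (SE 0.200, adjusted p = 7.04e-06, edgeR quasi-likelihood test with Benjamini-Hochberg adjustment), with 1.10 and 1.11 in the single mice. Over the 9 alternatives it lay between 0.80 and 1.21, and each of the 7 that gave a test passed the threshold. The median share of mitochondrial reads was also higher in enterocytes, at 13.2% and 7.59% against 9.02% and 5.52% in TA cells. In the fit on cells of at most 10% the log2 difference was 0.80 (adjusted p = 0.00644, edgeR), the lowest of the alternatives. That cut kept 150 of 931 and 307 of 382 enterocytes. Enterocyte clusters differed in the share as well, with medians of 15.1% and 9.65% in cluster 1 and 10.2% and 5.89% in cluster 2. The fit therefore cannot separate mitochondrial share from enterocyte cluster.

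The enterocyte clusters differed in Insr as well. It reached 32.6 and 49.8 CPM in cluster 1, where Apoa4, an apolipoprotein gene of mature enterocytes, stood at 7011 and 5387 CPM. It stood at 26.0 and 32.2 CPM in cluster 3 and at 20.9 and 15.1 CPM in cluster 2, where Apoa4 stood at 25.1 and 11.8 CPM. Igf1r stood at 1.83 and 2.27 CPM in cluster 1, at 1.32 and 2.38 CPM in cluster 3 and at 6.57 and 10.5 CPM in cluster 2.

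**Figure D2:**
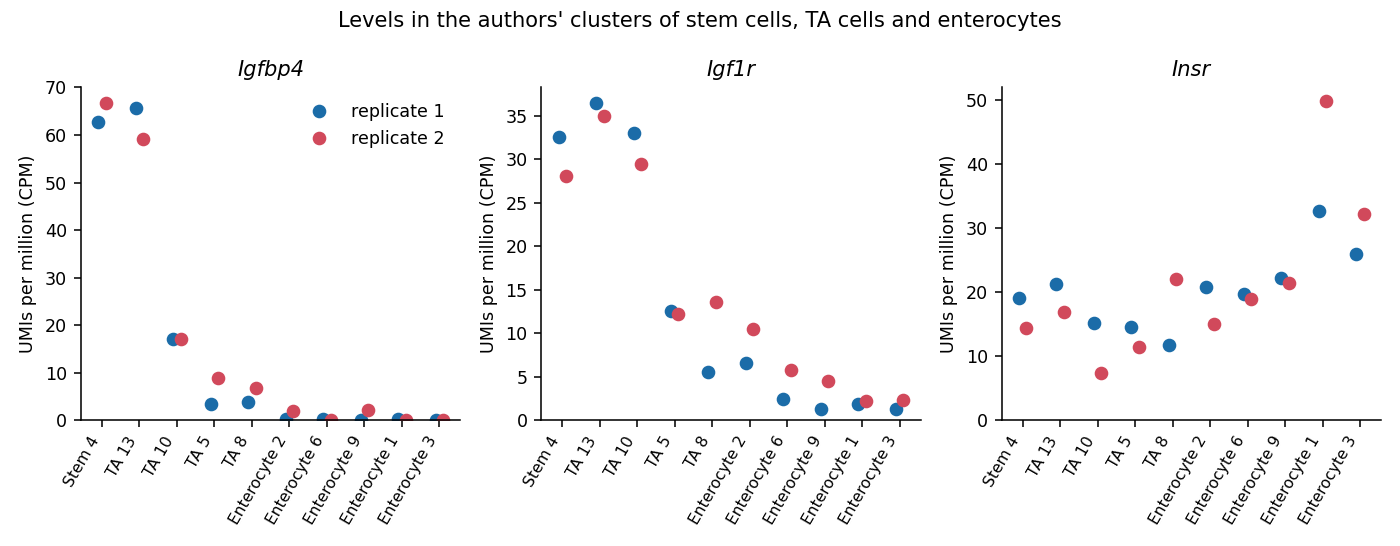
Igfbp4, Igf1r and Insr in CPM (vertical axes, linear) in the authors' clusters of stem cells, TA cells and enterocytes, with 1 point per mouse and the cluster number beside each type. Igfbp4 and Igf1r are as high in TA cluster 13 as in stem cells, and Insr is highest in enterocyte cluster 1 at 32.6 and 49.8 CPM.

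A ratio of both receptors within the same cells needs no scaling, and it was added after the levels had been seen. Igf1r made up 63.0% (52.3 to 72.9) and 66.2% (53.7 to 77.2) of the Igf1r and Insr UMIs in stem cells. Secretory progenitors stood at 55% and 71.4%, from 20 and 7 UMIs, above stem cells in replicate 2. The share was 55.8% and 59.4% in TA cells, 51.4% and 55.6% in EEC, and 45.0% and 56.4% in goblet progenitors. Within the TA class it was 68.5% and 80% in cluster 10, above stem cells in both mice, and 63.2% and 67.3% in cluster 13. It was 24.0% and 25.7% in goblet cells and 9.29% (6.98 to 12.1) and 18.6% (13.0 to 25.3) in enterocytes. The share includes Igf1r, which was chosen for its level in stem cells, so its place there is a description. It compares cell types, and since capture may differ between the transcripts it does not say which receptor was more abundant.

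**Figure D3:**
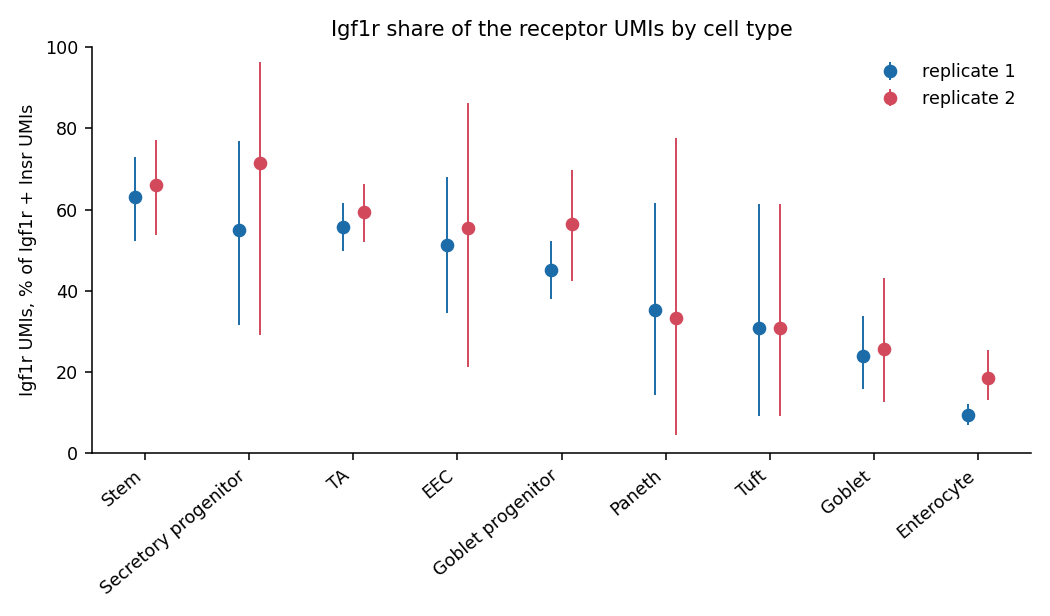
Igf1r UMIs as a percent of the Igf1r and Insr UMIs (vertical axis) by epithelial cell type, ordered by the mean of the mice, with 1 point per mouse and exact binomial 95% intervals as bars. By that mean the share runs from 63.0% and 66.2% in stem cells to 9.29% and 18.6% in enterocytes. Secretory progenitors, at 55% and 71.4%, are above stem cells in replicate 2, and the bars of the rarer types are wide.

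Igf2r, the clearance receptor for IGF2, was highest in EEC at 85.4 CPM (64.0 to 112) and 46.4 CPM (22.3 to 85.4). Secretory progenitors held 54.3 and 35.7 CPM, goblet cells 42.0 and 25 CPM, and goblet progenitors 27.7 and 30.6 CPM. Enterocytes held 25.1 and 23.6 CPM, TA cells 25.4 and 22.0 CPM, tuft cells 31.4 and 14.3 CPM, and stem cells 19.1 and 18.7 CPM. EEC thus led in both mice, and stem cells were 8th and 7th of the 9 types.

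EEC held 4.48 times (2.86 to 7.11) the stem cell level of Igf2r in replicate 1 and 2.48 times (1.08 to 5.22) in replicate 2. Paneth cells had the lowest unscaled level, 7.11 and 3.44 CPM, but after TMM scaling they stood at 45.7 and 28.4 scaled CPM, second to EEC, and stem cells then had the lowest mean at 15.0 ± 0.753 (SD, n = 2). IEL held 53.3 CPM from 14 UMIs and 8.87 CPM from 2 UMIs, too few for an order.

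Airn, a noncoding RNA transcribed antisense to Igf2r, was also highest in EEC in both mice, but unlike Igf2r its stem cell level was above that of enterocytes, from 2 UMIs in each type in replicate 2. It stood at 33.8 and 23.2 CPM in EEC, at 19.5 and 8.93 CPM in secretory progenitors, at 15.3 and 3.13 CPM in goblet cells, at 6.73 and 1.25 CPM in stem cells and at 1.65 and 0.374 CPM in enterocytes. Whether the counting used the strand is not given in the sources used here. Whether reads of one of these overlapping genes were counted for the other was not tested.

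The fits compared stem cells with the other 8 epithelial types at equal weight, enterocytes with TA cells, and the mean of goblet, Paneth, EEC and tuft cells with enterocytes. The authors' cell types rest on the expression of these same cells, so many genes differ between them. In the stem cell comparison 15.4% of 11013 tested genes were higher and 10.1% lower, and of the 4 members tested Igf2r alone passed, as lower. Its log2 difference was -0.83 (SE 0.227, adjusted p = 0.00666, edgeR), with -1.03 and -0.49 in the single mice. The call was lost without the mouse term (adjusted p = 0.0851) and in thinned cells (adjusted p = 0.0933), and with replicate 2 alone the difference was -0.49.

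Insr and Irs2 did not pass in stem cells, with log2 differences of -0.11 (SE 0.236, adjusted p = 0.819) and -0.64 (SE 0.389, adjusted p = 0.247, edgeR). The sign for Insr differed between the mice, at -0.17 and 0.072. As a description, the fitted difference was 3.26 (SE 0.284) for Igfbp4 and 1.4 (SE 0.238) for Igf1r. The Igfbp4 value includes sums with 0 UMIs, so it depends on the fit and is no bound.

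Between enterocytes and TA cells 29.1% of genes were higher and 22.6% lower in enterocytes, and Insr and Irs2 were the members among the 4 that passed, both higher. Igf2r did not, with a log2 difference of 0.45 (SE 0.201, adjusted p = 0.0632, edgeR). The fitted difference was -5.15 for Igfbp4 and -2.02 for Igf1r, again as a description.

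In the mean of the 4 differentiated secretory types against enterocytes, 21% of genes were higher and 27.8% lower, and Insr was the 1 of 4 members that passed, as lower. Its log2 difference was -0.72 (SE 0.198, adjusted p = 0.00297, edgeR), with -0.48 and -1.05 in the single mice. It did not pass in thinned cells (adjusted p = 0.0606) or in cells of at most 10% mitochondrial reads, where the log2 difference was -0.35 (adjusted p = 0.256). On the unscaled CPM scale EEC in replicate 1 held more Insr than enterocytes. After TMM scaling, as in the fit, enterocytes were the highest type in both mice. They stood at 24.9 and 23.7 scaled CPM, beside 18.3 and 12.7 in EEC.

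Irs1, an adaptor of both receptors, was seen in EEC and hardly elsewhere. It had 17 UMIs in all, of which 11 fell in the 74 EEC. Replicate 1 had 8 UMIs in 54 EEC, or 12.9 CPM (5.56 to 25.4), and replicate 2 had 3 UMIs in 20 EEC, or 13.9 CPM (2.87 to 40.7). The remaining 6 UMIs lay in 5 of 3201 other cells, with 2 and 1 UMIs in TA cells, 1 and 1 in enterocytes and 0 and 1 in goblet progenitors.

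Stem, secretory progenitor, goblet, Paneth and tuft cells and IEL had 0 Irs1 UMIs in both mice. A count of 0 allows up to 1.68 and 1.87 CPM in stem cells and up to 0.793 and 1.34 CPM in goblet cells (3 UMIs of each library's sum), but up to 7.25 and 5.36 CPM in tuft cells, so a low level there was not detectable. With sums this sparse the fitted differences of Irs1 could not be interpreted, and none is given.

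Irs2, the other substrate, was low and nearly level. EEC held 8.06 and 13.9 CPM, tuft cells 12.1 and 8.93 CPM, goblet cells 10.6 and 10.3 CPM, and goblet progenitors 7.26 and 13.2 CPM. Enterocytes held 7.13 and 12.3 CPM, TA cells 5.57 and 10.3 CPM, stem cells 3.92 and 8.10 CPM, secretory progenitors 2.17 and 17.9 CPM and Paneth cells 1.42 and 0.687 CPM. Neighbouring types overlapped down to stem cells, and in most types replicate 2 was above replicate 1. After TMM scaling Paneth cells stood at 9.14 and 5.68 scaled CPM, 2nd and 9th of the 9 types.

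Enterocytes exceeded TA cells in Irs2 by a log2 difference of 0.70 (SE 0.276, adjusted p = 0.034, edgeR) after TMM scaling. On the CPM scale the ratio was 1.28 (0.913 to 1.82) and 1.20 (0.829 to 1.73), and both intervals include equality. The call was lost with DESeq2 (adjusted p = 0.115), when low counts were kept (0.078), when the mouse term was dropped (0.367) and in cells of at most 10% mitochondrial reads, where the log2 difference was 0.30 (adjusted p = 0.527).

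Genes with the most similar profile were taken among 5106 genes of at least 20 CPM, by the lower of the 2 mice's Pearson correlations of log2(CPM + 1) over the 9 epithelial types, with no test. For Igfbp4 they were Olfm4 (0.91), a stem cell marker, Cdk6 (0.69) and Amica1 (0.69). Olfm4 itself differed between the mice, with 313 and 14.3 CPM in stem cells. For Igf1r they were Aqp4 (0.96), Trim27 (0.96) and Rangrf (0.96), for Igf2r Golim4 (0.94), Aff4 (0.93) and Serinc1 (0.92), and for Insr Slc6a6 (0.98), Efcab14 (0.98) and Med13 (0.97). For Irs2 they were Abi1 (0.91), Srp68 (0.90) and Gtpbp2 (0.88). For Irs1 they were Vim, Fev and Tph1 (0.997, 0.983 and 0.982), of which Fev and Tph1 are genes of serotonin-making EEC, but this likeness rests on 17 UMIs. The points share libraries and depth, and Paneth cells are low in all these unscaled profiles.

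The rest of the pathway was read from a list of 60 genes by role, the members left out, of which 40 passed the filter on low counts. In stem cells 4 were higher (10%), 0 were lower and 36 did not pass, with a median log2 difference of -0.01 beside 0.03 over all genes. Between enterocytes and TA cells 7 were higher (17.5%), 5 lower (12.5%) and 28 did not pass, with a median of 0.20 beside 0.06 over all genes. In the secretory mean against enterocytes 8 were higher (20%), 9 lower (22.5%) and 23 did not pass, with a median of -0.10 beside -0.004 over all genes. Each of these shares lay below the share over all genes given above.

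Ligands were nearly absent from the epithelium. Ins1, Ins2 and Igf1 had 0 UMIs in the epithelial cells of both mice, and Igf2 had 18. None of the 4 passed the filter. Insrr, the orphan receptor of the family, had 33 UMIs, of which 20 and 9 lay in Paneth cells.

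Of the 6 adaptors tested, 4 (66.7%, beside 29.1% of all genes) were higher in enterocytes than in TA cells and none passed in stem cells. One of the 4 was Irs2, whose call was lost in 4 alternatives. The others were Gab1 with a log2 difference of 1.0 (SE 0.269, adjusted p = 0.00247), Sos1 with 0.55 (SE 0.207, adjusted p = 0.0253) and Grb2 with 0.43 (SE 0.171, adjusted p = 0.0353, edgeR). In the single mice the difference was 1.26 and 0.29 for Gab1 and 0.47 and 0.22 for Grb2. These differences are after TMM scaling. On the unscaled CPM scale Grb2 was nearly level, at 53.0 and 47.5 CPM in enterocytes beside 50.7 and 49.1 CPM in TA cells. Sos1 stood at 19.9 and 16.6 CPM beside 18.8 and 14.3 CPM, and Gab1 at 10.8 and 7.48 CPM beside 5.69 and 7.17 CPM. Gab1 is a docking protein, Sos1 activates RAS, and Grb2 links receptors to Sos1.

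Among inhibitors near the receptor, Socs2, which restrains growth hormone signalling, was higher in stem cells by 0.68 (SE 0.146, adjusted p = 0.00073). Its levels there were 118 and 142 CPM. Socs3, another cytokine-induced inhibitor, was higher in enterocytes than in TA cells by 1.38 (SE 0.312, adjusted p = 0.000452, edgeR), with 1.60 and 0.55 in the single mice. Its highest type in both mice was EEC, at 32.2 and 18.6 CPM, beside 11.8 and 6.17 CPM in enterocytes. The other tested inhibitors, Ptpn1 and Socs1, passed in neither of these comparisons.

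Of the 7 tested genes of PI3K and lipid phosphatases, 4 (57.1%, beside 27.8% of all genes) were lower in the secretory mean than in enterocytes. There 1 gene, the regulatory subunit Pik3r3, was higher. The lower genes included the regulatory subunits Pik3r1 (-0.35, SE 0.148, adjusted p = 0.0479) and Pik3r2 (-0.89, SE 0.201, adjusted p = 0.000436, edgeR). These subunits also passed in other comparisons. Pik3r1 was higher in stem cells by 0.77 (SE 0.143, adjusted p = 0.000137), at 105 and 81.7 CPM, but its highest type in both mice was EEC, at 139 and 97.5 CPM. Pik3r2 was higher in enterocytes than in TA cells by 1.07 (SE 0.193, adjusted p = 2.49e-05), and Pik3r3 was higher in the secretory mean than in enterocytes by 2.05 (SE 0.547, adjusted p = 0.00236, edgeR). Pik3r3 was highest in tuft cells, at 26.6 and 28.6 CPM.

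Among kinases, Sgk1, a kinase of sodium transport downstream of PI3K, was higher in enterocytes than in TA cells by 3.83 (SE 0.273, adjusted p = 1.27e-12, edgeR), at 36.5 and 32.9 CPM in enterocytes. It also passed as higher in stem cells, although it stood there at 5.61 and 5.61 CPM, below enterocytes, since the mean over the other types is one of log values and includes sums at 0. Akt1 was lower in enterocytes than in TA cells (log2 difference -0.51, SE 0.176, adjusted p = 0.0152), and Gsk3b was higher by 0.47 (SE 0.171, adjusted p = 0.0219). Without TMM scaling Gsk3b was nearly level, at 85.8 and 64.7 CPM in enterocytes beside 83.4 and 61.6 CPM in TA cells.

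Of the 13 tested genes of the mTOR branch, 4 (30.8%, beside 22.6% of all genes) were lower in enterocytes than in TA cells and none was higher. They were Eif4ebp1 (-0.66, adjusted p = 0.00354) and Eif4ebp2 (-0.64, adjusted p = 0.00932), repressors of cap-dependent translation, the kinase Rps6kb1 (-0.49, adjusted p = 0.0154) and the ribosomal protein Rps6 (-0.38, adjusted p = 0.0459, edgeR; -0.59 and -0.29 in the single mice). Rps6 was the 1 gene of this branch that passed in stem cells, at 0.68 higher (SE 0.112, adjusted p = 3.71e-05). In the secretory mean against enterocytes, 5 of the 13 were higher (38.5%, beside 21% of all genes). There 1 was lower (7.69%, beside 27.8%). The largest change was that of Eif4ebp1, at 1.14 higher (SE 0.187, adjusted p = 6.05e-06, edgeR). Of 3 FoxO factors none passed in stem cells or between enterocytes and TA cells. Foxo1 was lower in the secretory mean than in enterocytes (-1.06, SE 0.216, adjusted p = 0.000119). Both tested mRNA-binding proteins named for Igf2, Igf2bp2 and Igf2bp3, did not pass in any comparison.

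**Figure D4:**
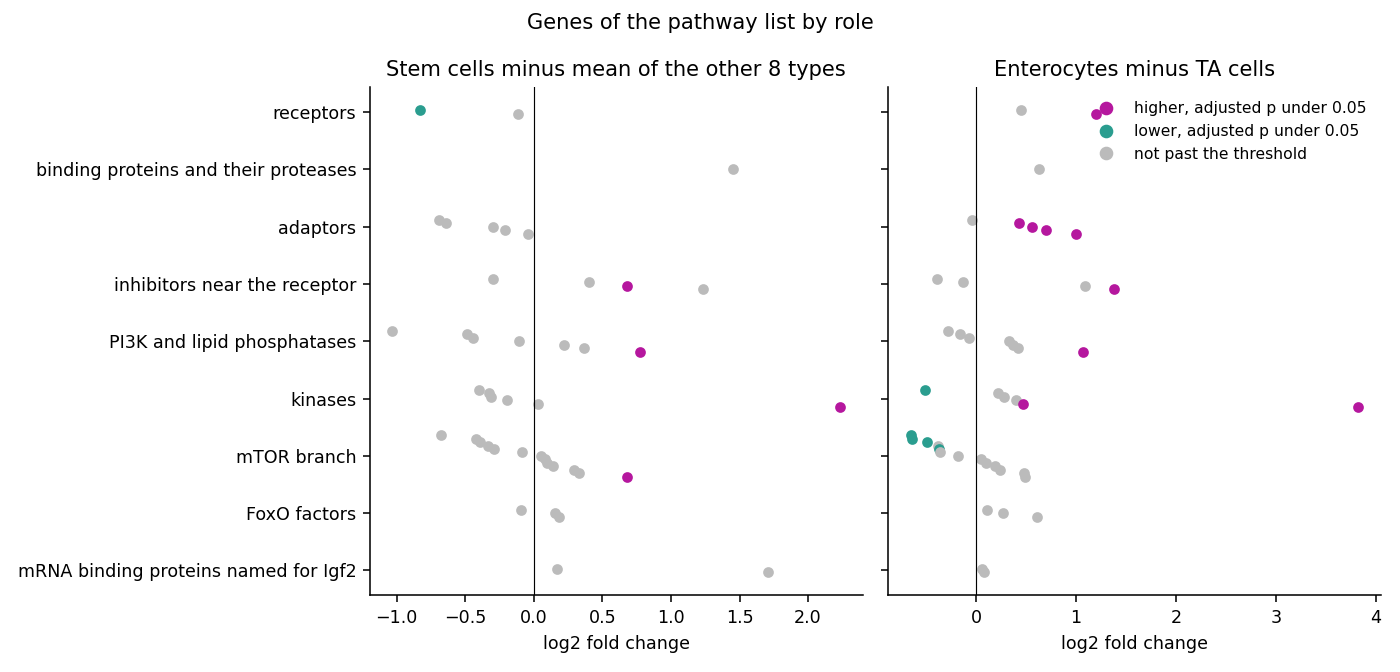
Fitted log2 fold changes after TMM scaling (horizontal axes) of the tested genes of the pathway list, grouped by role, for stem cells against the mean of the other 8 epithelial types and for enterocytes against TA cells. Each point is 1 gene, coloured by whether it passed an adjusted p of 0.05. Igfbp4, Igf1r and Irs1 are not drawn, and the point farthest to the right in both panels is Sgk1.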

How the data were processed

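Jejunal crypt cells of 2 knockout mice were dissociated with dispase and profiled with the 10x Genomics 3′ v2 kit, 1 library per mouse. The authors aligned reads to mm10 with Cell Ranger 3.0.1 and deposited UMI counts per gene and barcode as raw counts (64305085 and 23675011 UMIs over 7665 and 1251 barcodes). They describe removing ambient RNA with SoupX, and the sources used here do not say whether this applies to the deposited counts, which are whole numbers. They removed doublets and cells with under 1500 genes or over 25% mitochondrial reads, clustered the cells in Seurat and named the clusters. The mitochondrial percent of each cell is a deposited column of their annotation, whose UMI totals equalled those of the deposited whole-study table in 3275 of 3275 kept cells. A table of normalized values and one of doublet calls were not used, nor were 2937 cell columns of other samples.

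Counts were summed per mouse and annotated type, because a mouse and not a cell is the replicate. The 18 epithelial sums, holding 215413 to 19366535 UMIs, were filtered with filterByExpr, scaled by TMM and fitted with edgeR 4.0.16 (robust quasi-likelihood, cell type and mouse as terms, 8 residual degrees of freedom), which assumes that all types share 1 spread per gene. Tests were two-sided, with Benjamini-Hochberg adjustment over 11013 genes and a threshold of 0.05. SEs are the log2 difference over the square root of F. Single-mouse differences used a prior count of 2. Sums of the same number come from the same mouse, so the mouse term pairs them. Sums under 10 cells were to be left out, but every epithelial sum was larger, and IEL were left out of the fits. The fit was tested on simulated data. Shares carry exact Clopper-Pearson 95% intervals. Each mouse gave 1 library, so an SD over n = 2 also holds library differences. UMI intervals and floors (3 UMIs) cover counting error only.

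The 6 members and the gene lists were chosen with earlier results of these data known. Named genes are the members, the 3 most similar genes of each member, and up to 4 genes of each role by size of change. The last are from genes that passed in stem cells or between enterocytes and TA cells. Pik3r3 and Foxo1 were named from the secretory mean, where other genes that passed were left unnamed. Ligands, Insrr and genes that did not pass were named after their values were seen, as were Airn and cluster markers. Alternatives were RLE factors, DESeq2 1.42.0, no filter on low counts, no mouse term, cells thinned to 5000 UMIs, cells of at most 10% mitochondrial reads and leaving out each mouse. Leaving out Paneth cells, TMM-scaled levels and the receptor share were added after seeing the data.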

Additional observations from a re-analysis of the deposited data

Results flagged for a closer look

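Barcodes outside the kept cells, 5583 in replicate 1 with a median of 1581 UMIs and 58 in replicate 2 with a median of 19374.5 UMIs, also held UMIs of the members above the level that a count of 0 allows. In replicate 1 the levels were 7.49 CPM for Igfbp4, 8.87 CPM for Igf1r, 26.3 CPM for Igf2r, 20.8 CPM for Insr, 0.197 CPM for Irs1 and 8.68 CPM for Irs2. The sum of all kept cells of that mouse held 8.27, 9.72, 26.6, 20.1, 0.250 and 6.59 CPM of the same genes in the same order. In replicate 2 the levels outside the kept cells were 17.2 CPM for Igfbp4, 10.6 CPM for Igf1r, 11.9 CPM for Igf2r, 7.94 CPM for Insr and 4.63 CPM for Irs2. The kept cells of replicate 2 held 12.5, 11.1, 19.5, 13.9 and 8.98 CPM of these genes in the same order. The type of these barcodes is not annotated, and how much of them is free RNA was not tested.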

How the results depend on the processing

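The number of genes that differed in stem cells was 2815, and it was 1019 without the replicate block (the mouse term) and 1774 in cells thinned to 5000 UMIs. Enterocytes against TA cells gave 5694 genes, and 2843 without the block. The secretory mean against enterocytes gave 5370 genes, and 2991 in thinned cells. The share of calls that were higher was 74.1% in thinned cells against 60.4% for stem cells, and 28.8% against 43% for the secretory mean. Thinning moved the median log2 difference of all genes from 0.03 to 0.21 in the first and from -0.004 to -0.22 in the second, and leaving out the filter moved the latter to -0.11. Removing the block lost the calls of Igf2r in stem cells and Irs2 in enterocytes, and no other call of a member.

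Some differences of members changed sign, all without a call. Insr in stem cells was -0.11, 0.18 in thinned cells, and between -0.17 and 0.072 when either mouse was left out. Irs2 in the secretory mean was -0.20, 0.15 in cells of at most 10% mitochondrial reads, and between -0.48 and 0.15 when either mouse was left out. Irs1 between enterocytes and TA cells, from at most 2 UMIs in a sum, lay between -0.37 and 0.056 when either mouse was left out. Igf2r in the secretory mean passed with RLE factors (adjusted p = 0.0445) and in cells of at most 10% mitochondrial reads (adjusted p = 0.0487) but not in the main analysis (adjusted p = 0.0932, edgeR). Of 60 tested differences of Igf2r, Insr and Irs2 under an alternative, 48 kept their direction and side of the threshold. TMM scaling moved 18 of 30 mean levels by more than 1 SD. Depth limits Irs1 everywhere, the EEC and secretory progenitor sums of replicate 2 and the tuft sums of both mice.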

Other observations

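Another 3 genes of the pathway list, named after their values were seen, had their UMIs in few cells. Igfbp2, an IGF-binding protein, stood at 144 CPM in EEC of replicate 2, where 31 UMIs came from 1 of 20 cells, and at 6.44 CPM in EEC of replicate 1, from 2 of 54 cells. Igfbp5 stood at 50.8 CPM in tuft cells of replicate 1, where 21 UMIs came from 1 of 40 cells. Pappa2, a protease that cleaves IGF-binding proteins, had 20 UMIs in 6 of 54 EEC of replicate 1 and 0 in the 20 EEC of replicate 2. Igfbp4 was spread over many more cells, with at least 1 UMI in 58 of 139 and 59 of 117 stem cells.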
